A study of Mus musculus with 24 samples.

Results

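Serotonin receptor transcripts were followed in the amygdala and the hippocampus of mice from lines bred for high and for low freezing. The genes considered were Htr1a, Htr1b, Htr1f, Htr2a, Htr2c, Htr3a, Htr4, Htr5a, Htr5b and Htr7. Their probe sets, each a group of probes that reads 1 transcript or a stretch of it, were those for which the platform annotation gives the gene as the single symbol. That rule found 16 of the 45037 probe sets tested, and they read 9 of the 10 genes. Htr3a and Htr5b have 1 probe set each, and the other genes found have 2. No probe set carries Htr2a as its single symbol, and Htr2a was not analysed here.

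The 24 Affymetrix arrays form 4 groups of 6: the amygdala of the high freezing line, the amygdala of the low freezing line, the hippocampus of the high freezing line and the hippocampus of the low freezing line. All arrays were labelled as male mice, with line 25 as the high and line 24 as the low freezing line. Freezing is the motionless posture by which fear of a context is scored after conditioning. The labels give neither the age nor the conditioning history of the mice, and do not say whether RNA of several animals was pooled or whether arrays of both tissues share an animal. Each freezing level is represented by a single breeding line, so a line difference made by selection and one made by drift cannot be told apart, and p-values measure the spread between these arrays.

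Serotonin released by raphe neurons acts on target cells through a family of receptors. Most are G protein coupled: the Htr1 and Htr5 groups mainly lower cAMP through Gi, the Htr2 group raises phospholipase C activity through Gq, and Htr4, Htr6 and Htr7 raise cAMP through Gs. Htr3a is the exception and forms a ligand-gated cation channel. In amygdala and hippocampus these receptors sit on principal cells, interneurons and incoming axons, and several are targets of drugs that alter anxiety-like behaviour in rodents.

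The promoters of Htr2c, Htr1b and Htr1a are shown because these genes had the largest differences between the tissues of any receptor with an entry in the promoter table, Htr2c and Htr1b being higher and Htr1a lower in amygdala. The sequences are the 250 bases upstream of the annotated start in RefSeq (build GRCm38.p6), written 5′ to 3′ on the strand of the gene: chrX:146962263-146962512 on the plus strand for Htr2c, chr9:81633833-81634082 on the minus strand for Htr1b, and chr13:105443443-105443692 on the plus strand for Htr1a. Capitals mark exact matches to short motifs searched on both strands: the TATA box (TATAAA), the GC box (GGGCGG), an E-box of the form CACGTG, a second E-box of the form CAGCTG, the cAMP response element core TGACG, and the CCAAT box (CCAAT).
Htr2c: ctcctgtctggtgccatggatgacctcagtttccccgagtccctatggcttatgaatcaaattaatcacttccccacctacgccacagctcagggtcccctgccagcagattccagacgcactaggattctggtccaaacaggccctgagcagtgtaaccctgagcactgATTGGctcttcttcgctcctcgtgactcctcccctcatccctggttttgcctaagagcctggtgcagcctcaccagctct
Htr1b: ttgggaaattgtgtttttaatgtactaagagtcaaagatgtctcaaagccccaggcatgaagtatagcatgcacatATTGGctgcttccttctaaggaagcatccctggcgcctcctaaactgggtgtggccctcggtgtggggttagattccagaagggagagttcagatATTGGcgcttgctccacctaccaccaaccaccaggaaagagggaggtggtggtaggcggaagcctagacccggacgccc
Htr1a: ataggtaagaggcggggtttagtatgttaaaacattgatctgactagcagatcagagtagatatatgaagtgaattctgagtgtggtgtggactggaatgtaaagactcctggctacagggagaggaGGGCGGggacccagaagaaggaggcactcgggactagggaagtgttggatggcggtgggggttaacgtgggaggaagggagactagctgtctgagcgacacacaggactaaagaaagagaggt
The Htr2c window holds 1 CCAAT match, on the opposite strand, 80 bases before the start. In Htr1b the same motif occurs on the opposite strand at 174 and 79 bases before the start. The Htr1a window has none, and holds a GGGCGG match 123 bases before the start. Of 32536 promoters of the same length, 33.8% hold CCAAT and 33% hold GGGCGG, so such matches are common. TATAAA, present in 12.3% of them, occurs in none of the 7 receptor promoters in the table. A match is a description of letters and shows no binding.

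Signals are linear intensities as deposited, and tests used log2(signal + 16), which understates differences of weak probe sets. Differences are amygdala minus hippocampus or high minus low line, and calls are those with a limma p under 0.05 after Benjamini-Hochberg adjustment over all 45037 probe sets. Array medians of the signal lay between 43.3 and 55.6. The tissue labels were set beside marker genes, in lists chosen with earlier results of these data known, so this is not an independent check. Of 17 amygdala markers measured, each by its brightest probe set, 13 were called higher in amygdala and 1 lower. Of 20 hippocampus markers, 19 were called lower in amygdala and 1, Wfs1, higher. Over all probe sets 12.9% were called higher and 12.9% lower. Preparation differed with tissue. The dap poly-A spike, a foreign transcript added before labelling, read at most 92.7 on the amygdala arrays apart from array 3 of the low line, which read 1972, and between 1563 and 2490 on all hippocampus arrays. The 18S ribosomal control read 295 to 1525 in amygdala and 3600 to 7093 in hippocampus. Tissue and preparation therefore cannot be told apart, with array 3 as the only amygdala array that carries the spike.

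Receptor probe sets ranged from signals far above background to signals at background. No detection call came with the values, so background was set in each group at the 95th percentile of the group means of 132 probe sets for olfactory, vomeronasal and taste receptors, keratin-associated proteins and alpha-defensins, genes brain tissue is not known to use much. This level was 5.42 in high line amygdala, 5.54 in low line amygdala, 5.73 in high line hippocampus and 5.41 in low line hippocampus, on the log2(signal + 16) scale. Of the 16 receptor probe sets, 10 stood above it in every group, 4 were at background in 1 to 3 groups, and 2 were at background in all 4 groups. The last were 1422207_at of Htr5a and 1422235_at of Htr7. Both genes have a second probe set above background in every group, so the probe sets of a gene disagree. Which of them reads the gene better was not tested.

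**Figure D1:**
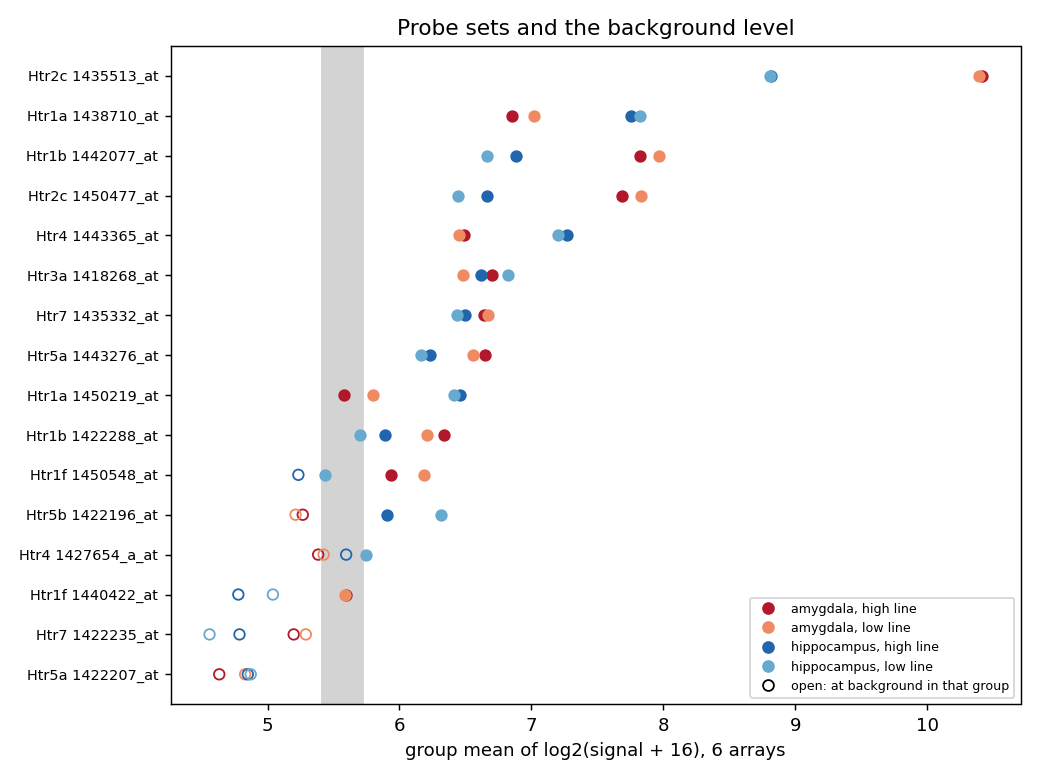
Group means of log2(signal + 16) over 6 arrays (horizontal axis) for each of the 16 serotonin receptor probe sets (rows), with open symbols where a group is at background and the grey band spanning the 4 background levels from 5.41 to 5.73. Probe set 1435513_at of Htr2c lies farthest from background in all groups, and both 1422207_at of Htr5a and 1422235_at of Htr7 are open in all 4 groups.

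Between the tissues, 12 of the 16 receptor probe sets were called, 8 higher and 4 lower in amygdala. Over all probe sets tested, 25.8% were called, 12.9% higher and 12.9% lower. Htr2c, Htr1b, Htr1f and Htr5a were higher in amygdala, and Htr1a, Htr4 and Htr5b lower, by the brightest probe set of each gene. For Htr3a and the brightest probe set of Htr7 the difference was not called. The median absolute difference was 0.71 over the 16 receptor probe sets and 0.15 over all probe sets. In 6 of the 16 probe sets the 12 amygdala arrays did not overlap the 12 hippocampus arrays, against 4.91% of all probe sets. In bulk tissue a difference in the number of cells that use a gene and one in RNA per cell cannot be told apart.

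**Figure D2:**
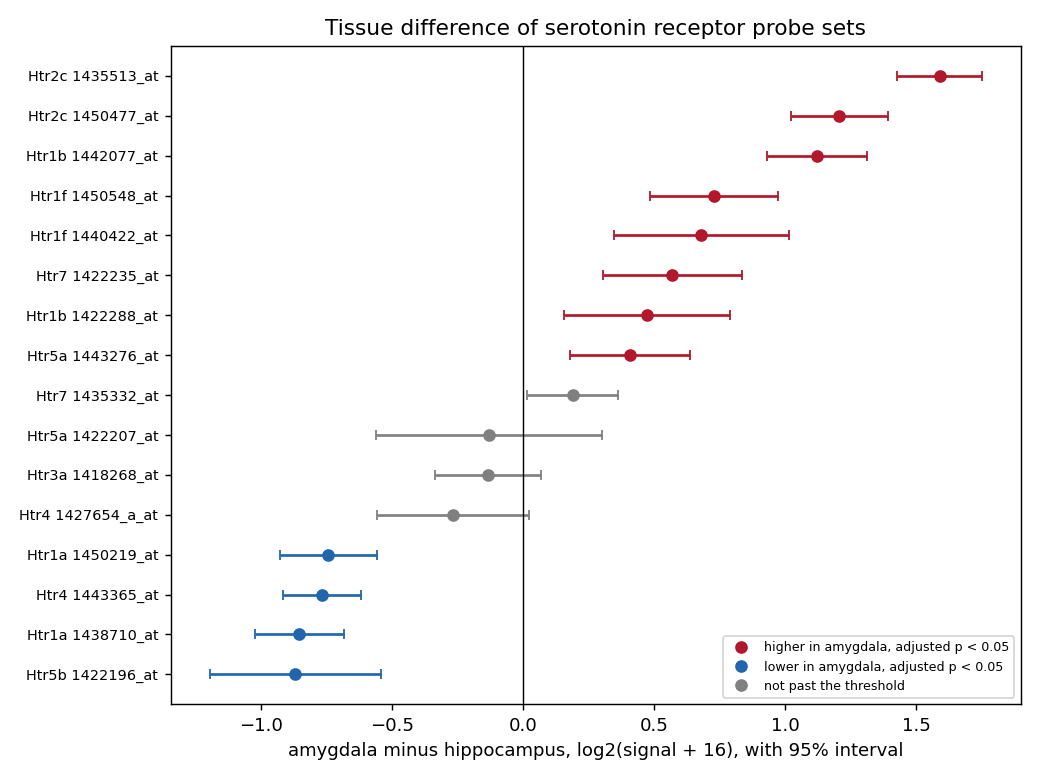
Difference between amygdala and hippocampus in log2(signal + 16), averaged over the lines (horizontal axis), for the 16 serotonin receptor probe sets (rows), with 95% intervals from the fit over 24 arrays. The 8 called higher in amygdala run up to 1.59 for Htr2c and the 4 called lower run down to -0.87 for Htr5b.

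Htr2c, the Gq-coupled receptor whose RNA is edited and which is also abundant in choroid plexus, had the largest tissue difference of the receptors. Probe set 1435513_at read from 1213 through a median of 1341 to 1464 in high line amygdala, and from 1141 through 1342 to 1528 in low line amygdala. In hippocampus it read from 380.4 through 422 to 521 in the high line and from 316 through 446 to 550.3 in the low line. All amygdala arrays were above all hippocampus arrays, while within a tissue the lines overlapped. The difference was 1.59 ± 0.08 (SE), 3.01-fold, with an adjusted p of 1.14e-13. The second probe set, 1450477_at, read from 126 through 219 to 231 in high line amygdala and from 178 through 221 to 247 in low line amygdala. Its hippocampus signals ran from 78.0 through 81.5 to 107 in the high line and from 56.7 through 71.8 to 82.7 in the low line. Again the tissues did not overlap, and the difference was 1.21 ± 0.09 (SE), with an adjusted p of 2.17e-10.

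Because choroid plexus carries Htr2c, its markers were set beside the receptor on each array. Their mean log2(signal + 16), over the 11 of 12 markers measured, spanned 5.67 to 7.41 in high line amygdala, 5.68 to 7.72 in low line amygdala, 5.86 to 7.93 in high line hippocampus and 5.70 to 7.78 in low line hippocampus. Arrays of each group thus ranged from little to much choroid signal. Between tissues 0 of the 11 markers were called higher in amygdala and 1, Kl, lower, against 12.9% in each direction over all probe sets. Otx2 and Slc4a5 were at background in all 4 groups. Over the 12 hippocampus arrays Htr2c 1435513_at followed this mean, with a Pearson r of 0.77 (permutation p = 0.0040, adjusted 0.0160 over 4 relations) and a Spearman rho of 0.80 (p = 0.00296, adjusted 0.0118). Without the arrays with the 2 most extreme choroid means r was 0.91, and within the lines it was 0.86 in the high and 0.72 in the low line. Over the 12 amygdala arrays r was -0.24 (permutation p = 0.439, adjusted 0.585) and rho -0.41 (p = 0.185, adjusted 0.246), which did not pass, and the difference between the tissues' correlations was not tested. Without the 2 most extreme arrays r was 0.16 in amygdala. The second probe set gave r of 0.44 in hippocampus (permutation p = 0.152, adjusted 0.305; rho 0.48, p = 0.113, adjusted 0.227) and -0.13 in amygdala (permutation p = 0.70, adjusted 0.70; rho -0.17, p = 0.590, adjusted 0.590), and without the 2 most extreme arrays r was 0.55 and 0.04. The hippocampus array with the lowest Htr2c signal, 316, had a choroid mean of 5.98, and the one with the highest, 550.3, had 7.78.

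**Figure D3:**
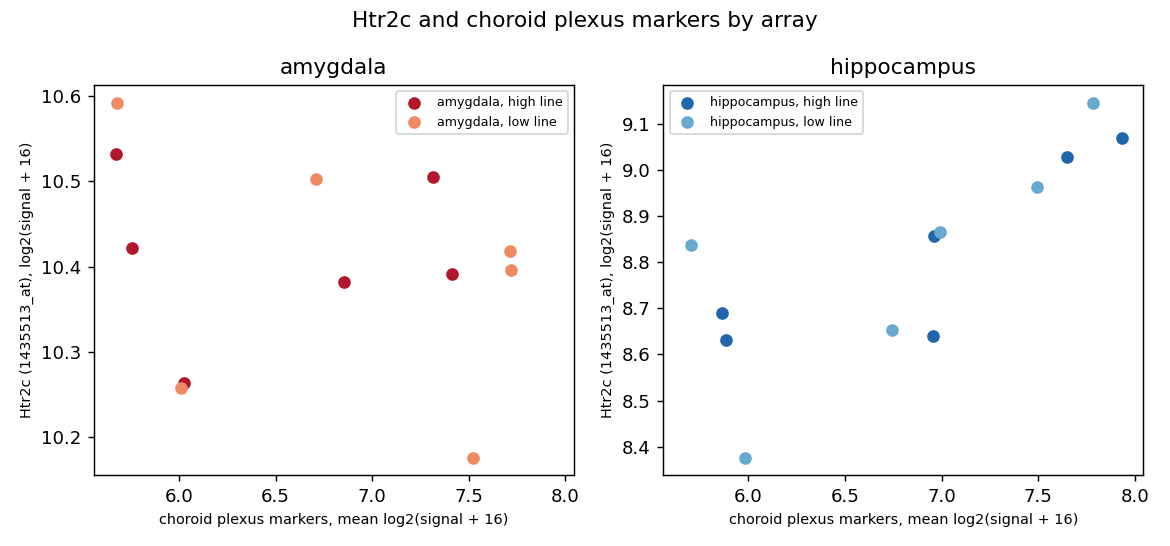
Htr2c (1435513_at) against the mean of the 11 choroid plexus markers measured, both as log2(signal + 16), 1 point per array, for amygdala and hippocampus in separate panels with their own vertical axes. Hippocampus arrays with more choroid signal read higher Htr2c (r = 0.77, n = 12), and in amygdala the relation did not pass (r = -0.24, n = 12).

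Among the Gi-coupled receptors, Htr1b and Htr1a differed between the tissues in opposite directions. Htr1b, the autoreceptor of serotonin axon terminals that also sits on the terminals of other neurons, was higher in amygdala. Probe set 1442077_at read from 194 through 210.3 to 229.7 in high line amygdala and from 168 through 249.6 to 299 in low line amygdala. The hippocampus values ran from 79.4 through 107 to 121 in the high line and from 67.7 through 86.2 to 105 in the low line. The tissues were separate and the lines overlapped, with a difference of 1.12 ± 0.09 (SE), 2.18-fold, and an adjusted p of 1.12e-09. The dimmer 1422288_at, at 28.2 to 97.9 in high line amygdala, 51.9 to 72.8 in low line amygdala, 24.8 to 73.1 in high line hippocampus and 13.9 to 58.1 in low line hippocampus, overlapped between tissues. It differed by 0.47 ± 0.15 (SE; adjusted p = 0.0239), or 0.27 with log2(signal + 64), and without amygdala arrays 7 and 8 it was not called (0.46, adjusted p = 0.0550).

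Htr1a, which acts as the somatodendritic autoreceptor in the raphe and as a postsynaptic inhibitory receptor in the hippocampus, was lower in amygdala. Probe set 1438710_at read from 72.0 through 106 to 132 in high line amygdala and from 96.2 through 114 to 139.9 in low line amygdala. In hippocampus it read from 192 through 199.99 to 208 in the high line and from 169.5 through 215 to 232 in the low line. No amygdala array reached the lowest hippocampus array. The difference was -0.85 ± 0.08 (SE), a 1.81-fold lower level, with an adjusted p of 1.67e-08. Probe set 1450219_at gave -0.74 ± 0.09 (SE; adjusted p = 6.54e-07), or -0.43 with log2(signal + 64), again without overlap, with 19.6 to 44.5 in high line amygdala, 33.6 to 43.2 in low line amygdala, 61.4 to 94.3 in high line hippocampus and 47.5 to 89.9 in low line hippocampus. The lowest values of 1438710_at, 72.7 and 72.0, belonged to high line amygdala arrays 7 and 8, whose ratio of 5′ to 3′ actin signal, a sign of RNA integrity, was 0.301 and 0.339, against 0.497 to 0.630 on the other 10 amygdala arrays. The same arrays also held the lowest amygdala values of Htr2c 1450477_at, 126 and 150. Without arrays 7 and 8 the tissue difference of Htr1a 1438710_at was -0.76.

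Htr1f, a Gi-coupled receptor bound by several triptan drugs, was weakly expressed and higher in amygdala. Probe set 1450548_at read from 30.0 through 46.3 to 59.9 in high line amygdala and from 42.0 through 60.2 to 64.02 in low line amygdala. Hippocampus signals ran from 11.5 through 18.3 to 42.8 in the high line, where the group mean was at background, and from 17.1 through 28.5 to 38.4 in the low line. The ranges of the tissues overlapped, and the difference was 0.73 ± 0.12 (SE) with an adjusted p of 4.09e-05. The other probe set, 1440422_at, was at background in both hippocampus groups and differed by 0.68 ± 0.16 (SE; adjusted p = 0.00251). With signals this close to background the sizes depend on the pseudocount: 1450548_at ran from 0.37 with log2(signal + 64) to 1.07 with log2(signal + 1), and 1440422_at from 0.30 to 1.25.

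Htr5a and Htr5b, of the Htr5 group, went opposite ways. Htr5a 1443276_at read from 58.3 through 82.7 to 109.8 in high line amygdala, from 49.7 through 83.2 to 104 in low line amygdala, from 37.1 through 57.2 to 85.2 in high line hippocampus and from 43.7 through 55.8 to 66.5 in low line hippocampus. All 4 ranges overlapped, and the tissue difference was 0.41 ± 0.11 (SE), 1.33-fold (adjusted p = 0.00775), or 0.26 with log2(signal + 64). Its other probe set, 1422207_at, at background everywhere, gave -0.13 ± 0.21 (SE; adjusted p = 0.705). Htr5b, read by 1422196_at, is a functional gene in mouse that has lost its coding capacity in human. It was at background in both amygdala groups, with 8.88 through 23.7 to 39.4 in the high line and 4.61 through 22.7 to 41.4 in the low line. In hippocampus it ran from 27.3 through 41.8 to 66.0 in the high line and from 39.6 through 68.5 to 75.8 in the low line. The difference was -0.87 ± 0.16 (SE; adjusted p = 0.000171), with overlapping tissues. Since amygdala is at background its size depends on the pseudocount, from -1.32 with log2(signal + 1) to -0.44 with log2(signal + 64), and no fold is given.

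Htr3a, the channel-forming subunit found on a class of cortical and limbic interneurons, did not pass the tissue test. It read from 73.5 through 83.1 to 124 in high line amygdala, from 53.4 through 69.8 to 99.8 in low line amygdala, from 59.7 through 88.0 to 99.3 in high line hippocampus and from 80.5 through 103 to 107 in low line hippocampus. The groups overlapped, and the difference was -0.13 ± 0.10 (SE; 95% interval -0.33 to 0.07; adjusted p = 0.359).

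The Gs-coupled receptors divided. Htr4 was lower in amygdala by 1443365_at, with 53.7 through 72.2 to 97.8 in high line amygdala and 60.1 through 73.7 to 82.3 in low line amygdala. Hippocampus values were 127 through 139 to 151 in the high line and 127 through 129 to 139 in the low line. The tissues did not overlap, and the difference was -0.76 ± 0.07 (SE), 1.70-fold lower, with an adjusted p of 1.16e-08. Htr4 1427654_a_at, at background in all groups but low line hippocampus, gave -0.27 ± 0.14 (SE; adjusted p = 0.179).

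Htr7 1435332_at read from 73.7 through 82.3 to 95.2 in high line amygdala, from 71.5 through 81.6 to 107 in low line amygdala, from 53.3 through 75.4 to 93.4 in high line hippocampus and from 52.0 through 68.2 to 93.2 in low line hippocampus. These ranges overlapped, and the difference of 0.19 ± 0.08 (SE; 95% interval 0.02 to 0.36) was not called (adjusted p = 0.104). Without low line hippocampus array 6 it was 0.22, with an adjusted p of 0.0491. Htr7 1422235_at was called higher in amygdala at 0.57 ± 0.13 (SE; adjusted p = 0.00149) although its mean was at background in all 4 groups, and its difference ran from 0.22 with log2(signal + 64) to 1.21 with log2(signal + 1).

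**Figure D4:**
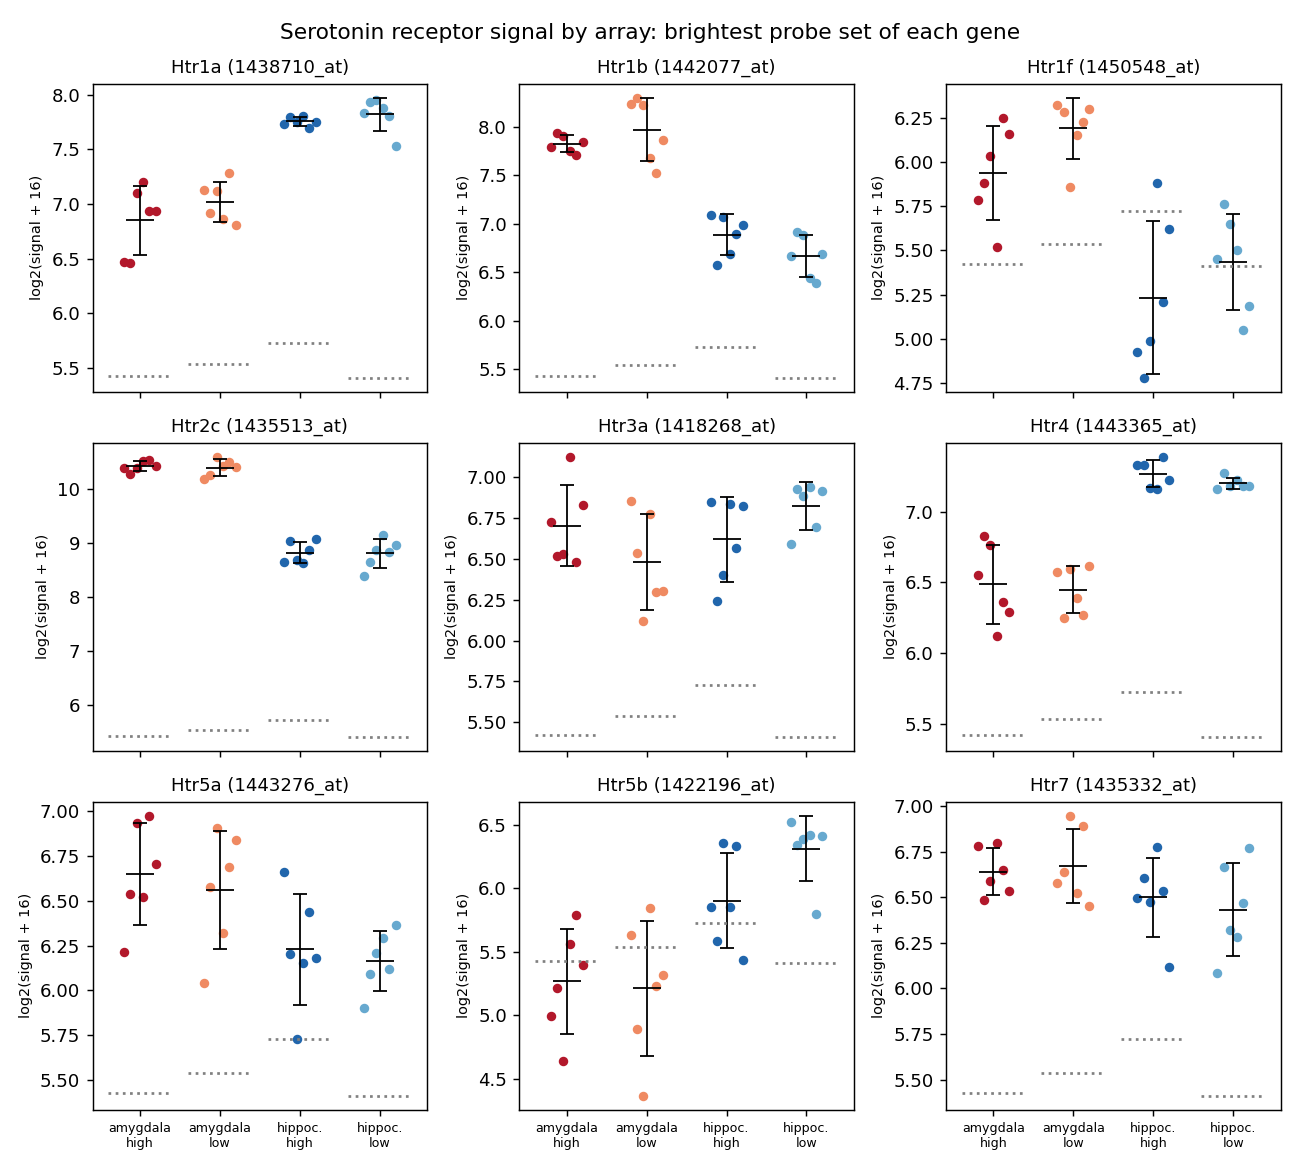
Signal of the brightest probe set of each serotonin receptor gene as log2(signal + 16) (vertical axis, scaled per panel), 1 point per array, with group mean and SD over 6 arrays and the background level of each group as a dotted line. Amygdala and hippocampus are separate for Htr2c, Htr1b, Htr1a and Htr4, and the lines overlap within each tissue for all 9 genes.

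The amygdala array that carries the spike, array 3 of the low line, read 1528 for Htr2c 1435513_at, 282 for Htr1b 1442077_at, 123 for Htr1a 1438710_at and 80.5 for Htr4 1443365_at. The tissues did not overlap for these probe sets, so each value had to lie outside the hippocampus range. These values therefore do not test tissue against preparation. The 18S control of array 3 read 1148, on the amygdala side. For Htr1f 1450548_at, array 3 read 42.0, inside the hippocampus range of that probe set. High line amygdala arrays 7 and 10, which do not carry the spike, read 39.2 and 30.0, also inside it. Markers of other regions and cell types differed between the tissues as well. Over all probe sets 25.8% were called, 12.9% higher and 12.9% lower in amygdala. In amygdala 11 of 12 striatum, 7 of 11 hypothalamus, 4 of 9 microglia and 3 of 10 habenula and thalamus markers measured were called higher and none lower. Of the meningeal fibroblast markers 8 of 10 were called lower, of the oligodendrocyte markers 6 of 8 and of the endothelial markers 2 of 7, and none higher. The habenula and thalamus count and the endothelial count lie near the share called over all probe sets. Of the habenula and thalamus markers 4 were at background in all groups. Astrocyte, interneuron and cortex markers were called in both directions. The striatum markers' mean was 8.17 to 8.90 in high line amygdala and 8.14 to 9.04 in low line amygdala, against 6.70 to 6.86 in high line hippocampus and 6.66 to 6.79 in low line hippocampus. The meningeal mean was 5.95 to 6.63 in high line amygdala and 6.23 to 7.03 in low line amygdala, against 7.28 to 7.50 in high line hippocampus and 6.84 to 7.33 in low line hippocampus. For hypothalamus the mean was 6.02 to 6.46 in high line amygdala and 5.76 to 6.43 in low line amygdala, against 5.36 to 5.86 in high line hippocampus and 5.14 to 5.71 in low line hippocampus. The oligodendrocyte mean was 9.13 to 9.45 in high line amygdala and 9.25 to 9.43 in low line amygdala, against 9.36 to 10.07 in high line hippocampus and 9.57 to 9.89 in low line hippocampus. For microglia it was 7.78 to 8.06 in high line amygdala and 7.79 to 8.05 in low line amygdala, against 7.70 to 7.89 in high line hippocampus and 7.56 to 7.75 in low line hippocampus. The part of these lists in the receptor differences was not tested.

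The tissue differences were also taken within each line. In the high line 9 of 16 receptor probe sets were called, against 19.1% of all probe sets, and in the low line 9 of 16, against 13.5%. Both probe sets of Htr2c and of Htr1a, the brightest of Htr1b, Htr1f and Htr4, and Htr5b were called in both lines. Htr5b gave -0.64 ± 0.22 (SE; adjusted p = 0.0489) in the high line and -1.10 ± 0.22 (SE; adjusted p = 0.00106) in the low line. Neither line alone called Htr5a 1443276_at (0.42 and 0.40, adjusted p = 0.0651 and 0.107, in the high and the low line).

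The series title names selection for contextual fear conditioning, and the line comparison asks whether the receptors differ between the selected lines. In amygdala 0 of 16 receptor probe sets were called, and 0 had an unadjusted p under 0.05. Of all probe sets 0.00222% were called and 6.54% had such a p. In hippocampus 0 of 16 were called, against 0.0222% of all, and 2 had an unadjusted p under 0.05, against 8.97%. Neither tissue had a receptor probe set whose lines did not overlap, which 0.402% of all probe sets showed in amygdala and 0.637% in hippocampus. The line differences of the receptors ran from -0.25 to 0.22 in amygdala and from -0.41 to 0.23 in hippocampus. The median absolute difference was 0.11 in amygdala, against 0.10 over all probe sets, and 0.17 in hippocampus, against 0.12. The 95% intervals differed in width between probe sets, and the outermost ends over all 16 were -0.71 and 0.59 in amygdala and -0.79 and 0.70 in hippocampus.

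**Figure D5:**
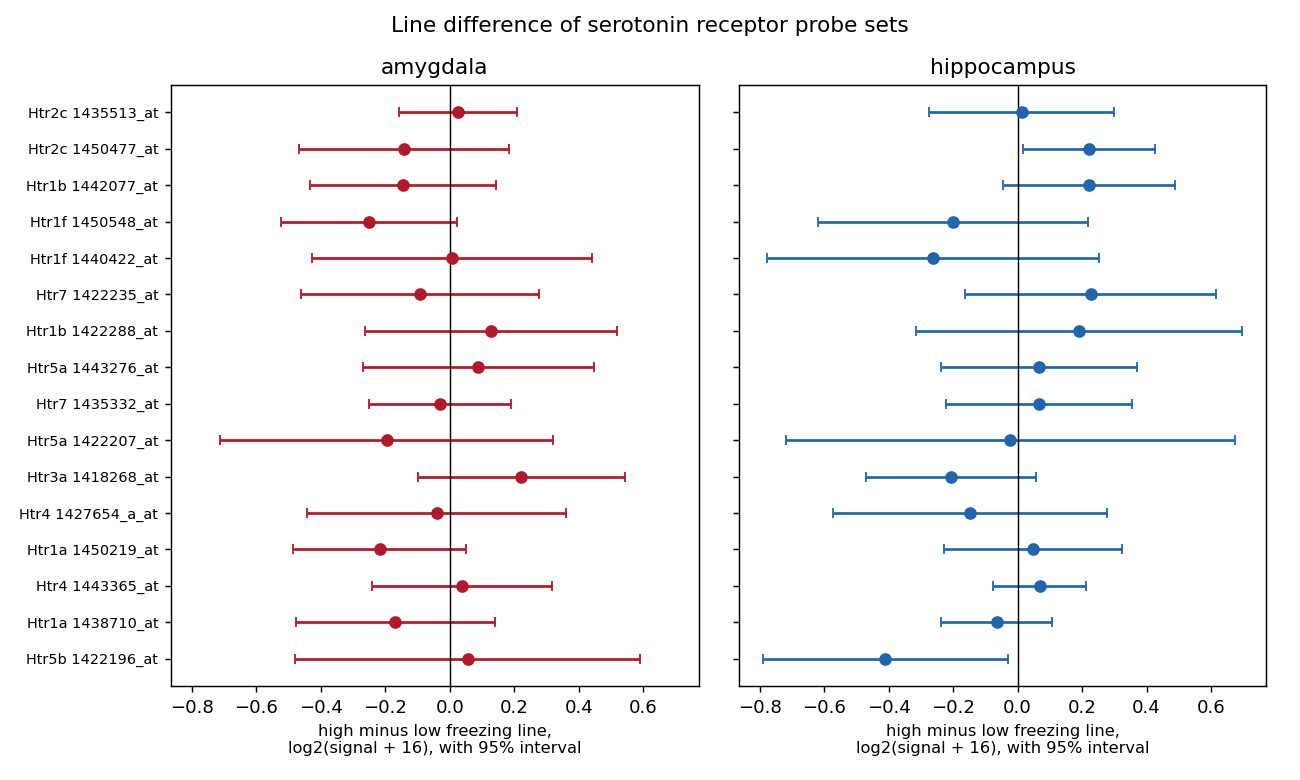
Difference between the high and the low freezing line in log2(signal + 16) (horizontal axis) for the 16 serotonin receptor probe sets (rows), in amygdala and in hippocampus, with 95% intervals from the fit of each tissue's 12 arrays. All differences lie between -0.41 and 0.23, and none passed the threshold.

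The precision differed between the receptors. For Htr2c 1435513_at the line difference was 0.03 ± 0.09 (SE; 95% interval -0.16 to 0.21) in amygdala and 0.01 ± 0.13 (SE; -0.27 to 0.30) in hippocampus. Htr1a 1438710_at gave -0.17 ± 0.14 (SE; -0.48 to 0.14) in amygdala and -0.06 ± 0.08 (SE; -0.24 to 0.11) in hippocampus. Without amygdala arrays 7 and 8, those of low actin ratio, its amygdala difference was 0.02. Htr4 1443365_at differed by 0.04 ± 0.13 (SE; -0.24 to 0.32) in amygdala and by 0.07 ± 0.07 (SE; -0.08 to 0.21) in hippocampus, the narrowest interval of the 16 in that tissue.

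The hippocampus values with an unadjusted p under 0.05 belonged to Htr5b and to Htr2c 1450477_at. Htr5b was at 5.90 ± 0.38 in the high line and 6.31 ± 0.26 in the low line (SD, n = 6 arrays each). That is a difference of -0.41 ± 0.18 (SE), which limma gave an adjusted p of 0.532. Htr2c 1450477_at was at 6.66 ± 0.14 in the high line and 6.44 ± 0.15 in the low line (SD, n = 6 arrays each), with a difference of 0.22 ± 0.09 (SE) and an adjusted limma p of 0.531, while 1435513_at of the same gene gave 0.01. In hippocampus the dap spike also separated the lines, at 2077 to 2490 in the high line and 1563 to 1912 in the low line, as did 18S at 3600 to 5799.9 in the high line and 5859 to 7093 in the low line (exact permutation p = 0.00216 each, adjusted 0.0455 over 42 array measures). Line and preparation therefore cannot be told apart there. The mean of 20 hippocampus markers was 8.63 ± 0.06 in the high line and 8.77 ± 0.07 in the low line (SD, n = 6 arrays each; exact permutation p = 0.00649, adjusted 0.0727). The mean of 10 dentate gyrus markers, some of which the hippocampus list also holds, was 7.96 ± 0.08 in the high line and 8.18 ± 0.13 in the low line, and that of 10 meningeal fibroblast markers 7.42 ± 0.08 in the high line and 7.14 ± 0.19 in the low line (SD, n = 6 arrays each; exact permutation p = 0.00866 each, adjusted 0.0727). Microglia markers were at 7.79 ± 0.07 in the high line and 7.67 ± 0.07 in the low line (exact permutation p = 0.0173, adjusted 0.121), and interneuron markers at 8.57 ± 0.03 in the high line and 8.52 ± 0.04 in the low line (exact permutation p = 0.0455, adjusted 0.239). The part of these lists in the Htr5b and Htr2c values was not tested.

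Whether the line difference itself differed between tissues was tested as an interaction. It was called for 0 of 16 receptor probe sets and for 0% of all, and 1 receptor had an unadjusted p under 0.05, against 7.08% of all. This was Htr3a, with a line difference of 0.22 ± 0.15 (SE) in amygdala and -0.21 ± 0.12 (SE) in hippocampus. The interaction was 0.43 ± 0.20 (SE; adjusted p = 0.684).

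Other genes of the pathway were taken from lists, each gene by its brightest probe set. The shares given beside them cover all probe sets, dim ones included, and so are not a like measure. Without the lowest 40% of probe sets, 11482 of 27023 were called between tissues. Of the 4 other receptor genes measured, Htr1d, a Gi-coupled terminal receptor, was higher in amygdala (1.08 ± 0.15 SE, adjusted p = 4.39e-06), while Htr2b and Htr3b were at background in all 4 groups and Htr6 was not called (-0.01 ± 0.12 SE). Of 10 genes of serotonin synthesis, transport and breakdown, 2 were higher, 1 lower and 7 not called, against 25.8% called over all probe sets. Ddc, the decarboxylase that makes serotonin and dopamine, differed by 1.08 ± 0.07 (SE) and Pcbd1, which recycles the tetrahydrobiopterin cofactor, by 0.47 ± 0.12 (SE). Tph2, the neuronal rate-limiting hydroxylase, gave -0.49 ± 0.10 (SE). Tph2, Tph1, Gch1 and the transporter Slc6a4 were at background in all 4 groups.

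Effectors of the receptors differed in both directions between the tissues. Of 21 genes for G proteins, adenylyl cyclases, phospholipases and potassium channels, 9 were called higher, 8 lower and 4 not. Over all probe sets 12.9% were called higher and 12.9% lower. Adcy5, the main striatal cyclase, was higher by 1.71 ± 0.08 (SE), and Gnal, the alpha subunit that stimulates it, by 1.07 ± 0.08 (SE). Adcy1, a calcium-stimulated cyclase, gave -1.29 ± 0.05 (SE) and Adcy9 gave -1.07 ± 0.05 (SE). Among 11 partners and editing enzymes 5 were higher, 2 lower and 4 not called. The largest differences were 0.76 ± 0.05 (SE) for Rgs4, which speeds the shut-off of Gi and Gq, 0.66 ± 0.12 (SE) for S100a10, which binds Htr1b and Htr4, 0.50 ± 0.05 (SE) for the arrestin Arrb1 and 0.43 ± 0.06 (SE) for the RNA editing enzyme Adar. Median differences were 0.10 for the effectors, 0.05 for the partners and -0.09 for the synthesis list, against -0.02 over all probe sets. None of these 4 lists had a gene called between the lines in either tissue. An unadjusted limma p under 0.05 occurred in amygdala for 1 of 10 synthesis and 1 of 21 effector genes, and for no other receptor or partner. Over all probe sets the share was 6.54%. In hippocampus it occurred for 1 of 4 other receptors, 3 of 10 synthesis, 1 of 21 effector and 1 of 11 partner genes, against 8.97%. The lowest p values were those of Slc18a2 (-0.44 ± 0.15 SE) in amygdala, and of Plcb3 (-0.84 ± 0.26 SE) and Tph2 (-0.47 ± 0.15 SE), which is at background, in hippocampus.

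The genes whose pattern over the 24 arrays lay closest to each called receptor were found among 16320 named genes by the root mean square difference of centred log2 values, a description of likeness only. For Htr2c these were Fnbp1l (0.15) and Gap43 (0.20). For Htr1b they were Rgs2 (0.20) and Elmo1 (0.21), and for Htr1f Mest and Yap1 (0.27 each). Htr1a lay closest to Trps1 (0.16) and Cyp7b1 (0.18), and Htr4 to Kcna1 and Mturn (0.14 each). The nearest to Htr5a were Dzip3 (0.22) and Mpp5 (0.23), and to Htr5b Ifngr2 (0.33) and Cpm (0.35).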

How the data were processed

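The deposited values are linear intensities, 1 per probe set and array, made by the authors with a signal algorithm not given in the sources used here. On each array the mean without the highest and lowest 2% of probe sets is 150. Genes were named through the platform annotation: of 45101 probe sets, 64 controls were left out, 34945 carry 1 symbol, 932 several and 9160 none, and 34741 symbols were updated through the Entrez identifier. The descriptions of the samples gave the groups and their titles the array numbers, and 0 columns were unmapped.

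Line differences were fitted with limma 3.58.1 in R 4.3.3 (lmFit and eBayes) on log2(signal + 16) over the 12 arrays of a tissue, and tissue differences and the interaction over 24 arrays. Adjusted p-values cover all 45037 probe sets. Correlations used 100000 permutations, two-sided, and array measures an exact two-sided permutation test of 6 against 6 arrays. Only the hippocampus line fit was checked on simulated data, with independent noise and changes placed in bright probe sets. The tissue and interaction fits were not checked in this way. All probe sets of the receptors are described, the brightest by mean standing for a gene; lists show up to 4 called genes by size, or up to 2 of lowest p. Plcb3 and Tph2 are the lowest p over the lists together. The receptors and the lists were chosen with earlier results of these data known. Array number as pairing was checked: arrays of the same number in both tissues correlated between -0.055 and 0.045, and 2 of 12 arrays correlated best with their own number. Alternatives were other pseudocounts (1 and 64), a filter on the lowest 40%, quantile normalization, median centring, an intensity trend, line differences from the 4-group fit over 24 arrays, a replicate block, another background level and leaving arrays out. The precision of a mean rests on the 6 arrays of a group.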

Additional observations from a re-analysis of the deposited data

Results flagged for a closer look

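Of 64 combinations of receptor probe set and group, 6 held an array whose gap to the nearest other array, as a share of its group's range, was above Dixon's 95% critical value for 6 arrays. Chance flags about 1 in 20 groups. Values are log2(signal + 16). In low line hippocampus, array 6 read 7.54 for Htr1a 1438710_at with the nearest array at 7.81, and array 5 read 5.80 for Htr5b with the nearest at 6.34. In high line amygdala, array 11 read 5.47 for Htr1b 1422288_at with the nearest at 6.38. In high line hippocampus, array 12 read 6.94 for Htr2c 1450477_at, above the nearest at 6.70, and it is also the array with the highest choroid plexus mean, 7.93. Both Htr1f probe sets stood apart on low line amygdala array 3, with 4.99 for 1440422_at (nearest 5.65) and 5.86 for 1450548_at (nearest 6.15). This is the amygdala array that carries the dap spike. High line amygdala array 10, which does not carry it, read lower on both probe sets, at 4.94 for 1440422_at and 5.52 for 1450548_at.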

How the results depend on the processing

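The counts of receptor probe sets called between lines, in amygdala, in hippocampus and for the interaction, were 0 under every alternative run, and 0 to 0 when each array was left out in turn. The tissue count was 12, and 12 to 13 with each array left out. Over all probe sets the main fit called 11615 of 45037 between tissues. Without the lowest 40% the receptor count was 10 of the 13 that remained, against 11482 of 27023 over all. The share called over all probe sets is thus higher once dim ones are left out. Without amygdala arrays 7 and 8 the receptor count was 11, against 10566 of 45037 over all. Of the 12 tissue calls, 9 were kept under all 33 alternatives, among which leaving out hippocampus array 7 was entered 2 times. The filter left out Htr1f 1440422_at and Htr7 1422235_at, which were kept under the other 32, and Htr1b 1422288_at was lost without amygdala arrays 7 and 8, for which the cause was not tested. No called difference changed sign. The check of array numbers gave no sign of pairing, but weak correlations cannot tell whether arrays of both tissues share an animal. With array number as a replicate block the tissue count was 12, against 10703 of 45037 over all probe sets, and the interaction count was 0. With background set at the 75th percentile of the same families, 1 receptor probe set was at background in all 4 groups, and at the median of all probe sets, 4, against 2; these levels differ by construction. Over all probe sets, the hippocampus line count of 10 (3 higher, 7 lower) was 0 with log2(signal + 1), 26 (12 higher, 14 lower) with log2(signal + 64), 12 (1 higher, 11 lower) with median centring, 10 (1 higher, 9 lower) with quantile normalization, 20 (10 higher, 10 lower) without the lowest 40%, 57 (25 higher, 32 lower) with an intensity trend, 51 (32 higher, 19 lower) in the 4-group fit over all 24 arrays, and 0 to 14 with each hippocampus array left out. Signal near background limits both Htr1f probe sets, Htr5b, and the dimmer probe sets of Htr4, Htr5a and Htr7.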
